A study of Mus musculus with 6 samples.

Results

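The lysosome is the acidic compartment in which a cell breaks down proteins, glycans and lipids that arrive by endocytosis, phagocytosis or autophagy. Its enzymes work in the lumen, a proton pump, the V-ATPase, keeps the lumen acidic, and a coat of heavily glycosylated membrane proteins protects the membrane and carries products out. Monocytes and macrophages are rich in lysosomes, and many lysosomal genes share a short promoter element that is read by the transcription factor TFEB and its relatives. The genes described here are 39 such genes out of 55421 counted in RNA sequencing of mouse splenic monocytes. They were taken as a list of names: 9 genes of membrane proteins, 3 of luminal proteins that are not enzymes, 10 of proteases, 8 of glycosidases, 4 of lipid hydrolases, 4 of the proton pump and *Tfeb* itself. All 39 had enough counts to be tested, as did 13849 genes in all.

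Each library came from 1 mouse on a C57BL/6 background, and the genotypes, IL-4Rα+/+ and IL-4Rα-/-, had 3 libraries each. The IL-4Rα-/- animals lack the receptor chain for IL-4 and IL-13 in every cell of the body, wild-type littermates served as controls in the study, and the mice used were 8 to 16 weeks old. No treatment is given for these samples. Splenic monocytes were obtained by negative selection, in which labelled non-monocytes are withdrawn and the monocytes are left untouched. The question set by the design is which transcripts differ in these cells without IL-4Rα. Each library had 26807281 to 29033297 reads on genes, and values are given below as CPM, counts scaled by TMM to libraries of the same total. Fold changes are on the log2 scale, IL-4Rα-/- over IL-4Rα+/+, with the standard error (SE) and the 95% interval from edgeR's quasi-likelihood test.

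*Il4ra*, which encodes the deleted chain, checks the labels. It had 3903, 3550 and 4686 counts in the IL-4Rα+/+ libraries and 781, 2268 and 940 in the IL-4Rα-/- libraries, so every IL-4Rα-/- library was lower, but replicate 2 kept the most reads. Its log2 fold change was -1.67 (SE 0.41), with an adjusted p of 0.618 in edgeR and 0.0111 in DESeq2. The monocyte markers were present in every library, with a summed level of 7007 to 7950 CPM in IL-4Rα+/+ and 6933 to 7250 CPM in IL-4Rα-/- mice over 10 genes. Markers of other cells were seen too. The 12 red pulp macrophage genes summed to 3872 to 4428 CPM in IL-4Rα+/+ and 4949 to 7900 CPM in IL-4Rα-/- libraries, and all 12 means were higher without IL-4Rα. *Xist*, transcribed in female cells, was abundant in IL-4Rα+/+ replicate 1 (553 CPM) and IL-4Rα-/- replicate 3 (457 CPM), and Y-linked *Ddx3y* ran from 113 to 149 CPM in the other 4 libraries, so the sexes were mixed alike in the genotypes.

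The promoters are shown first, because the element TCACGTGA, a palindrome that TFEB can bind, was shared by genes whose measured differences were not alike. In the RefSeq windows of build GRCm38.p6, which run from 250 bases before to 50 after a gene's start, 34 of the 39 genes had a sequence. TCACGTGA occurred in 7 of the 34 (20.6%), against 10 of 90 other lysosome genes (11.1%) and 304 of 27025 genes in all (1.12%). Its core CACGTG, which every TCACGTGA contains, occurred in 13 of the 34 (38.2%) and in 8.09% of all genes. Both letter strings read the same on either strand. The following stretches of 30 bases hold the 8-base element in capitals and are written 5′ to 3′ on the strand of the gene.
Cd164: cgccgggctgcTCACGTGAccggcgcgcgc
Mcoln1: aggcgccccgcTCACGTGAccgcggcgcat
Ctsa: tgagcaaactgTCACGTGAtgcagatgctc
Ctsd: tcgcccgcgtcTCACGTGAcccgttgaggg
Gla: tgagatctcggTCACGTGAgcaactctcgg
Atp6v0d1: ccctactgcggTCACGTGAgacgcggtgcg
Atp6v1a: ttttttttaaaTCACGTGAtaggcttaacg
These lie at chr10:41519401-41519430 (plus strand) for *Cd164*, chr8:3500462-3500491 (plus) for *Mcoln1*, chr2:164833749-164833778 (plus) for *Ctsa*, chr7:142387908-142387937 (minus) for *Ctsd*, chrX:134601182-134601211 (minus) for *Gla*, chr8:105566050-105566079 (minus) for *Atp6v0d1* and chr16:44139373-44139402 (minus) for *Atp6v1a*. Counted from the RefSeq starts, the element began 88 bases before that of *Cd164* and 46 before that of *Mcoln1*. The Gencode starts differ and place the element of *Cd164* across the first base of the gene. The elements shown for *Mcoln1*, *Ctsa*, *Ctsd* and *Atp6v1a* lie inside the Gencode genes, and those for *Gla* and *Atp6v0d1* lie before the Gencode starts. In the RefSeq windows *Ctsa* and *Gla* each held it at 2 places, of which 1 is shown. A match of letters is a description and not evidence of binding.

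*Cd164* encodes endolyn, a sialomucin of endosomes and lysosomes that is also found at the cell surface. It had 141, 147 and 142 CPM in the IL-4Rα+/+ libraries and 192, 191 and 177 CPM in the IL-4Rα-/- libraries. The genotypes did not overlap, and the lowest IL-4Rα-/- library lay above the highest IL-4Rα+/+ library by more than the spread within the IL-4Rα+/+ mice. The means were 144 ± 3.39 and 187 ± 8.41 CPM (SD, n = 3 each), a ratio of 1.30. The log2 fold change was 0.38 (SE 0.07, 95% interval 0.21 to 0.55) with an unadjusted p of 0.00117 in edgeR.

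Whether that difference is called depends on the tool. Adjusted over all genes, *Cd164* had a p of 0.618 in edgeR and 0.0201 in DESeq2, against the study's threshold of 0.15. edgeR called 0 of 13849 genes at that threshold (0%), with 1120 (8.09%) at an unadjusted p under 0.05, and DESeq2 called 80 of 14003 (0.571%). *Cd164* was the 1 gene of the 39 that DESeq2 called, a direction in which DESeq2 called 0.279% of all genes. The list was chosen with earlier results of these data known, so that share gives no test of the call. The log2 fold change of *Cd164* stayed between 0.35 and 0.42 under the 13 alternatives tried, with an adjusted p of 0.0201 to 0.901. In the libraries with *Xist* it was 141 CPM with and 177 CPM without IL-4Rα, and in those with *Ddx3y* it was 147 and 142 against 192 and 191 CPM. The gene, on chromosome 10 from 41519414 to 41531048 of GRCm38 in Gencode, overlaps no other annotated gene. Among the summed marker lists, 4 also did not overlap between genotypes in the same direction: red pulp macrophages as given above, B and plasma cells (494 to 548 against 570 to 755 CPM), erythroid cells (72.8 to 141 against 181 to 439 CPM) and eosinophils, basophils and mast cells (78.8 to 93.4 against 135 to 217 CPM). Their part in the *Cd164* difference was not tested, and in bulk RNA a change in the number of cells of a type cannot be told apart from a change in RNA per cell.

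The other 8 membrane genes did not share this separation, since in every one of them the genotypes overlapped. Of the 8, 3 had a fold change above 0 and 5 below, with a median of -0.01 and a range of -0.19 to 0.17, and none had an unadjusted p under 0.05. *Lamp1* and *Lamp2* encode the most abundant glycoproteins of the lysosomal coat. *Lamp1* had 1162, 1064 and 1155 CPM in IL-4Rα+/+ and 1125, 1260 and 1047 CPM in IL-4Rα-/- mice. Its fold change was 0.02 (95% interval -0.20 to 0.25). *Lamp2* had 321, 379 and 533 against 386, 620 and 385 CPM. The highest *Lamp2* library of each genotype stood well above the rest of its genotype, and the interval was correspondingly wide, with a fold change of 0.17 (-0.44 to 0.79).

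*Cd68*, a macrophage relative of the LAMP proteins, and *Scarb2*, the receptor that carries β-glucocerebrosidase to the lysosome, were the steadiest of the set. *Cd68* had 440, 422 and 440 CPM against 464, 437 and 435 CPM. *Scarb2* had 227, 222 and 238 CPM against 228, 237 and 219 CPM. Their intervals, -0.12 to 0.20 around 0.04 and -0.17 to 0.16 around -0.004, ended below the lower bound of *Cd164*, although the difference between the genes was not itself tested.

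The membrane transporters and channel had fold changes below 0, each with an interval across 0. *Npc1*, which exports cholesterol, had 105, 112 and 118 against 107, 109 and 105 CPM, a fold change of -0.06 (-0.24 to 0.11). *Mcoln1*, the calcium channel TRPML1, had 72.1, 68.4 and 63.3 against 58.4, 61.2 and 65.1 CPM, a fold change of -0.14 (-0.34 to 0.05). Of the 9 membrane genes only *Cd164* and *Mcoln1* carry TCACGTGA among those with a promoter sequence, and their fold changes had opposite signs. *Ctns*, the cystine exporter, had 38.6, 38.5 and 54.9 against 37.3, 55.7 and 36.9 CPM, a fold change of -0.02 (-0.53 to 0.49). The tetraspanin *Cd63* varied most of all 39 genes, with 63.9, 38.9 and 21.3 against 50.3, 18.4 and 40.3 CPM, and its fold change of -0.19 had an interval from -1.33 to 0.96. That interval is too wide to tell a fall from a rise, so *Cd63* was not resolved with these 6 mice.

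**Figure D1:**
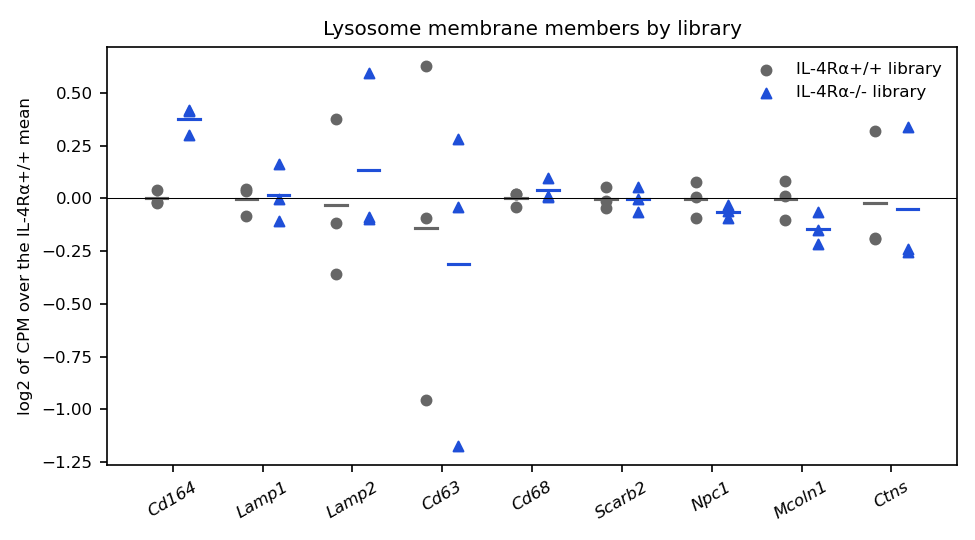
Level of the 9 lysosome membrane genes in each library, as the log2 of its CPM over the mean of the IL-4Rα+/+ libraries. Grey circles are the 3 IL-4Rα+/+ libraries, blue triangles the 3 IL-4Rα-/- libraries, and short bars the means of the log2 values. *Cd164* is the gene whose triangles all lie above its circles, while *Cd63*, *Lamp2* and *Ctns* spread widely within each genotype.

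Over all 39 genes, 2 had an unadjusted p under 0.05 in edgeR (5.13%, against 8.09% of all genes), and in 2 the genotypes did not overlap (5.13%, against 15.5% of all genes). They were the same genes, *Cd164* and *Smpd1*, both higher without IL-4Rα. In that direction all genes gave 3.72% at that p and 7.63% not overlapping. Counted in either direction both shares of the 39 were below those of all genes, and in that direction alone the share at that p was above and the share not overlapping below. Fold changes ran from -0.23 to 0.51, and 34 of the 39 were within 0.25 of 0 in size. In sign, 29 were above 0 and 10 below (74.4% above, against 51.5% of all genes), with a median of 0.07 against 0.01 for all genes. This lean rested most on IL-4Rα-/- replicate 2. Without that library 19 of the 39 were above 0 and the median was -0.01, with 48.4% of all genes above 0. Without IL-4Rα+/+ replicate 2 the lean was smaller too. Then 25 of the 39 were above 0 and the median was 0.02, with 51.6% of all genes above 0.

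*Smpd1* encodes acid sphingomyelinase, which splits sphingomyelin into ceramide. It had 23.3, 23.9 and 26.6 CPM in IL-4Rα+/+ and 32.6, 28.5 and 29.2 CPM in IL-4Rα-/- libraries. The gap between the genotypes was small beside the spread within them. The fold change was 0.29 (SE 0.09, 0.07 to 0.52) with an unadjusted p of 0.0176, an adjusted p of 0.618 in edgeR and 0.483 in DESeq2. Without IL-4Rα+/+ replicate 1, IL-4Rα+/+ replicate 2 or IL-4Rα-/- replicate 1 its unadjusted p was above 0.05, and over all alternatives that p ran from 0.0118 to 0.0768. The other 3 lipid hydrolases overlapped. *Lipa*, the acid lipase that frees cholesterol from its esters, had the lowest fold change of the 39, -0.23 (SE 0.17), from 321, 297 and 224 against 283, 205 and 229 CPM. *Ppt1*, which removes palmitate from proteins, had 174, 214 and 319 against 234, 371 and 216 CPM, a fold change of 0.22 (-0.46 to 0.90). *Asah1*, acid ceramidase, had 0.01 (-0.25 to 0.26).

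**Figure D2:**
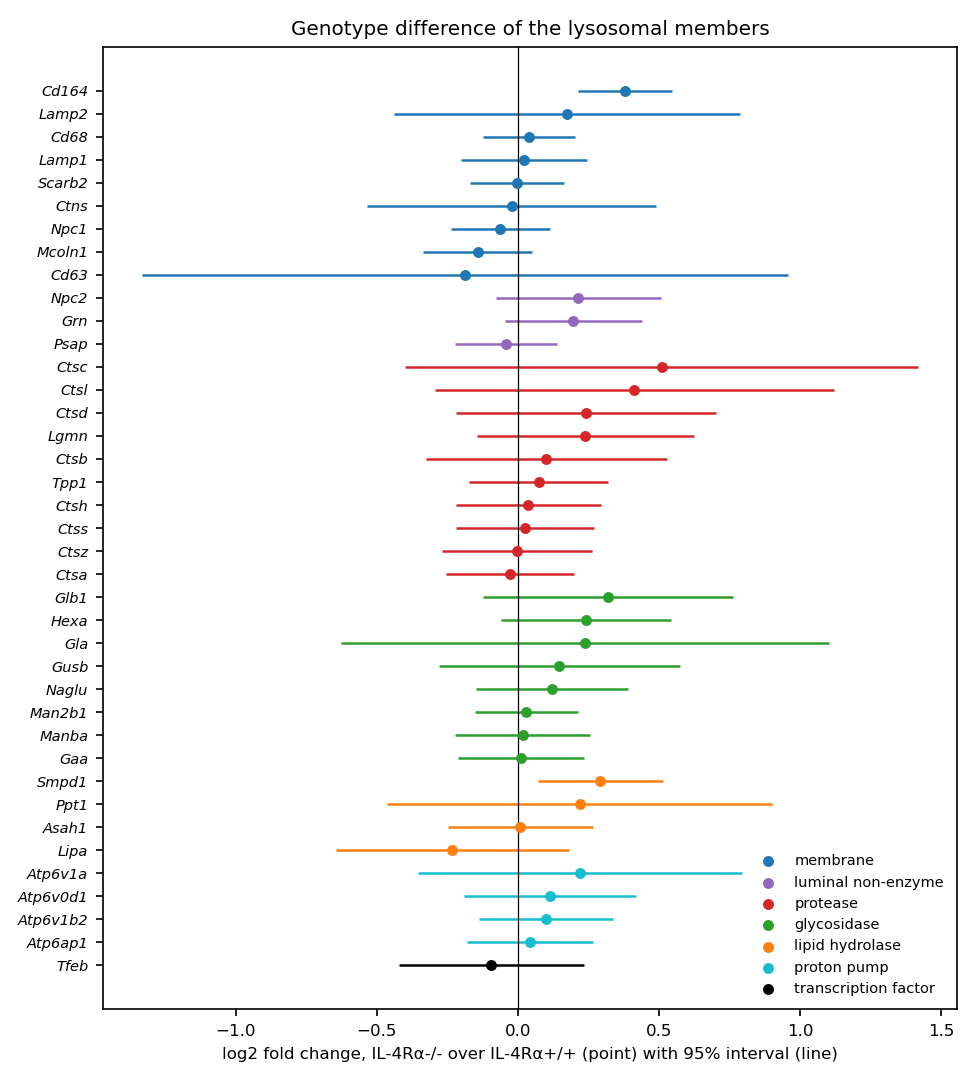
Log2 fold change of each of the 39 genes (point), IL-4Rα-/- over IL-4Rα+/+, with its 95% interval (line), coloured by role. The intervals of *Cd164* and *Smpd1* lie wholly above 0, and those of the remaining genes cross it.

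Of the luminal proteins that are not enzymes, *Psap*, the precursor of the saposins that present lipids to hydrolases, had the highest level per kb of exon of all 39 genes, 3427 CPM per kb. It had 9413, 9188 and 10020 CPM against 9064, 9456 and 9278 CPM, a fold change of -0.04 (-0.22 to 0.14). This most abundant transcript was therefore known within a narrow interval around 0. *Npc2*, which hands cholesterol to NPC1, had 788, 944 and 1012 against 970, 1178 and 1035 CPM, a fold change of 0.21 (SE 0.12, -0.08 to 0.51). *Grn*, progranulin, had 715, 728 and 816 against 875, 942 and 772 CPM, a fold change of 0.20 (SE 0.10, -0.05 to 0.44). In *Grn* and *Npc2* 1 IL-4Rα-/- library reached into the IL-4Rα+/+ range.

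Among the 10 proteases 8 had a fold change above 0, with a median of 0.09, and none had an unadjusted p under 0.05. Without IL-4Rα-/- replicate 2 the count was 6 of 10 and the median 0.04, while without IL-4Rα+/+ replicate 2 the median was also 0.04, without IL-4Rα+/+ replicate 1 it was 0.18 and without IL-4Rα-/- replicate 3 it was 0.17. *Ctsc*, dipeptidyl peptidase I, which activates granule serine proteases, had the highest fold change of the 39, 0.51, but its SE was 0.38 (-0.40 to 1.42). Its levels were 404, 621 and 939 against 732, 1381 and 680 CPM, so the genotypes overlapped. Without IL-4Rα-/- replicate 2 the fold change of *Ctsc* was 0.11, without IL-4Rα+/+ replicate 1 it was 0.26 and without IL-4Rα+/+ replicate 3 it was 0.86. *Ctsl*, an endopeptidase of the same papain-like family, had 50, 48.7 and 75.3 against 70.9, 109 and 52.1 CPM, a fold change of 0.41 (-0.29 to 1.12). *Ctsd*, the aspartic protease, had 313, 226 and 271 against 337, 378 and 241 CPM, a fold change of 0.24 (-0.22 to 0.70). A gene model on the same strand covers 34.4% of the exon bases of *Ctsd* and had 0 counts in every library, so reads there may have been left uncounted as ambiguous. *Lgmn*, legumain, which processes other cathepsins, had 340, 269 and 292 against 391, 394 and 278 CPM, also with overlap.

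The cathepsins with the highest levels per kb of exon, *Ctss* (1755 CPM per kb) and *Ctsb* (524 CPM per kb), had fold changes near 0. *Ctss*, which trims the invariant chain of MHC class II, had 2289, 2267 and 2534 against 2274, 2705 and 2235 CPM, a fold change of 0.03 (-0.22 to 0.27). *Ctsb* had 3791, 2831 and 2560 against 3867, 3080 and 2896 CPM, a fold change of 0.10 (-0.33 to 0.53). In *Ctsb* the first library of each genotype was the highest, unlike the other cathepsins named here. *Ctsa*, the carboxypeptidase that also stabilises β-galactosidase, had 737, 724 and 815 against 732, 818 and 685 CPM, a fold change of -0.03 (-0.25 to 0.20). The remaining proteases, *Ctsh*, *Ctsz* and *Tpp1*, had fold changes of 0.04, -0.004 and 0.07.

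All 8 glycosidases had a fold change above 0, from 0.01 to 0.32 with a median of 0.13, and none had an unadjusted p under 0.05. Without IL-4Rα-/- replicate 2 the count was 5 of 8 and the median 0.02. *Glb1*, the β-galactosidase that is also used as a senescence stain, was highest in fold at 0.32 (SE 0.18, -0.12 to 0.76), from 26.7, 34.9 and 43.0 against 41.8, 49.9 and 38.8 CPM. *Hexa*, which degrades gangliosides, had 384, 393 and 470 against 475, 560 and 437 CPM, a fold change of 0.24 (SE 0.13, -0.06 to 0.54). In both genes the highest IL-4Rα+/+ library, replicate 3, lay inside the IL-4Rα-/- range. Without it, the unadjusted p of each went under 0.05. *Gla*, α-galactosidase A, had the lowest level per kb of the 39, 3.84 CPM per kb, with 8.47, 9.33 and 16.8 against 10.3, 19.9 and 10.6 CPM. The fold change of *Gla* was 0.24 (-0.63 to 1.10) and turned to -0.14 without IL-4Rα-/- replicate 2. *Gusb* had a fold change of 0.15 and *Naglu* of 0.12, while *Gaa*, *Manba* and *Man2b1* lay between 0.01 and 0.03.

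The 4 proton pump genes among the 39 were all above 0, with a median of 0.11 and none at an unadjusted p under 0.05. *Atp6v1a*, the catalytic subunit, had 129, 147 and 200 against 151, 247 and 157 CPM, a fold change of 0.22 (-0.36 to 0.80) that became -0.04 without IL-4Rα-/- replicate 2. *Atp6v0d1*, which joins the membrane sector to the stalk, had 154, 134 and 174 against 163, 187 and 150 CPM, a fold change of 0.11 (-0.19 to 0.42). *Atp6v1b2* had 0.10 (-0.14 to 0.34) and the accessory subunit *Atp6ap1* 0.04 (-0.18 to 0.27). With the 13 further pump genes outside the 39, 16 of 17 fold changes were above 0 (94.1%, against 51.5% of all genes), with a median of 0.12. None of the 17 had an unadjusted p under 0.05, and in 4 (23.5%) the IL-4Rα-/- libraries all lay above the IL-4Rα+/+ libraries, against 7.63% of all genes. Those 4 were *Atp6v0e*, *Atp6v1c1*, *Atp6v1d* and *Atp6v1f*, with fold changes of 0.12 to 0.18, and the gene below 0 was *Tcirg1* at -0.15 (SE 0.18). The subunits belong to 1 complex, and their values come from the same 6 libraries, so they are not 17 separate observations. Without IL-4Rα-/- replicate 2, 12 of the 17 were above 0 and the median was 0.06.

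*Tfeb*, the transcription factor, had 128, 130 and 98.3 against 123, 99.1 and 112 CPM, a fold change of -0.09 (SE 0.14, -0.42 to 0.23). Its genotypes overlapped. The 7 genes with TCACGTGA had fold changes from -0.14 to 0.38 with a median of 0.22, and 5 of the 7 were above 0. The 27 genes with a promoter sequence and without the element ran from -0.23 to 0.51 with a median of 0.04, and 20 were above 0. Without IL-4Rα-/- replicate 2 the 7 had a median of -0.04 with 3 above 0, and the 27 a median of 0.005 with 14 above 0. The median of the 7 was 0.09 without IL-4Rα+/+ replicate 1 and 0.11 without IL-4Rα+/+ replicate 2. The ranges lay over each other, and 1 of the 7, *Cd164*, had an unadjusted p under 0.05.

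A further 117 lysosome genes were listed for context, and 115 were tested. edgeR and DESeq2 each called 0 of them at the threshold of 0.15. At an unadjusted p under 0.05 edgeR had 9 (7.83%, near the 8.09% of all genes) and DESeq2 also 9 (8.07% of all genes), and 15 did not overlap between genotypes (13.0%, against 15.5%). Higher without IL-4Rα at that unadjusted p were 4 of the 115, where 3.72% of all genes were higher at that p. *Pld3*, an endolysosomal nuclease, had 140, 118 and 125 against 257, 178 and 155 CPM, a fold change of 0.63 (SE 0.19). *Aga*, which cleaves the link between asparagine and glycans, had 15.4, 16.9 and 16 against 19.3, 21.6 and 19.3 CPM, a fold change of 0.32 (SE 0.10). Neither gene overlapped between genotypes. In *Pld3* the IL-4Rα-/- libraries stood in the order of their red pulp macrophage sums, 7900, 5477 and 4949 CPM. *Cd164* had the same order there, at 192, 191 and 177 CPM, with the first 2 nearly equal. In the IL-4Rα+/+ libraries the sums were 4428, 3983 and 3872 CPM. Neither *Pld3* nor *Cd164*, at 141, 147 and 142 CPM, kept that order. The part of macrophages in *Pld3* and *Cd164* was not tested. *Creg1*, a luminal glycoprotein, had 0.29 (SE 0.12) and *Tfec*, a TFEB relative of macrophages, 0.79 (SE 0.30), and these overlapped. *Tfec* was 0.45 without IL-4Rα-/- replicate 2, with an unadjusted p of 0.11.

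Lower at that unadjusted p were 5 of the 115, where 4.37% of all genes were lower at that p. The 5 are genes of nutrient sensing, channels, transport and sorting. *Mtor*, the kinase that senses amino acids at the lysosome, had 55.1, 61.0 and 58.2 against 47.3, 50.5 and 47.6 CPM, a fold change of -0.26 (SE 0.07). *Slc38a9*, the arginine sensor that signals to mTORC1, had 79.3, 86.1 and 78.0 against 67.2, 74.6 and 68.0 CPM, a fold change of -0.21 (SE 0.08). In both genes every IL-4Rα-/- library lay below every IL-4Rα+/+ library. The same held for the sorting adaptor *Gga3* (-0.16, SE 0.06) and the transporter *Abca2* (-0.25, SE 0.10). Genes picked by a small p separate more readily, so this adds no support. Of the 115 genes 7 lay below in this way, beside 7.87% of all genes. The channel *Tpcn1* had the lowest fold change of the 5, -0.59 (SE 0.20), from 87.0, 72.9 and 49.3 against 49.3, 44.9 and 44.6 CPM, with an overlap at 1 library. All 9 had an adjusted p of 0.618 in edgeR. With the trend of counts with transcript length removed, *Aga*, *Pld3*, *Tfec* and *Tpcn1* were the 4 of the 115 under an unadjusted p of 0.05. *Mtor* was then -0.19 (p 0.0534) and *Slc38a9* -0.09 (p 0.357), and *Gga3*, *Abca2* and *Creg1* were also above 0.05.

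**Figure D3:**
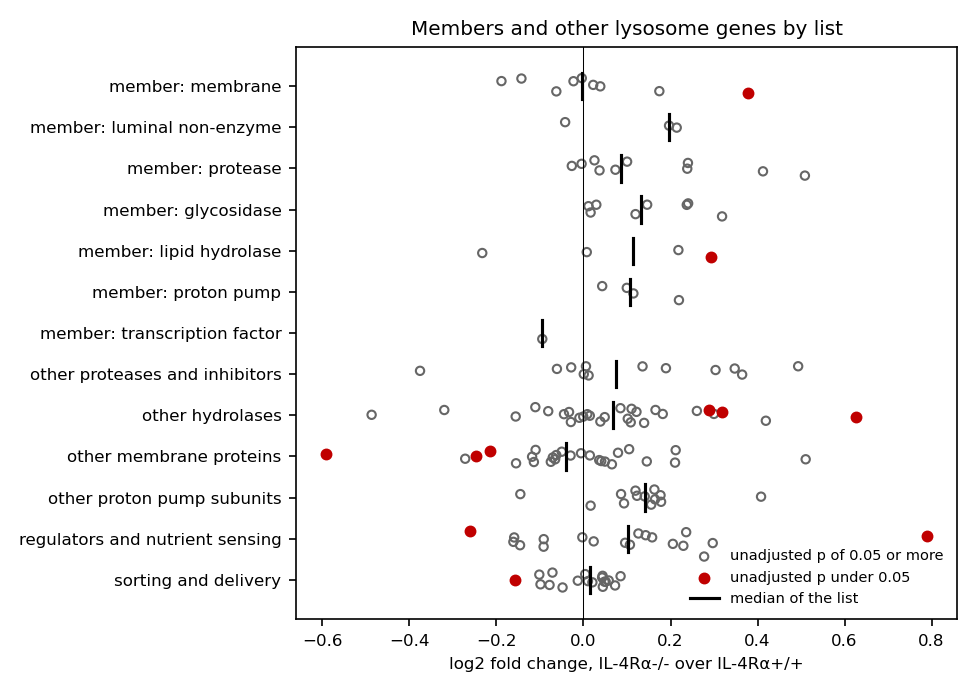
Log2 fold changes, IL-4Rα-/- over IL-4Rα+/+, of the 39 genes (upper 7 lists, by role) and of 115 other lysosome genes (lower 6 lists). Each circle is a gene, filled in red at an unadjusted p under 0.05, and the black bar is the list's median. The medians lie between -0.09 and 0.20, and red circles fall on both sides of 0.

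Most of the 39 genes overlapped between genotypes, and many of them ranked the 6 libraries alike. IL-4Rα-/- replicate 2 was the highest library in 25 of the 39 (64.1%, against 24.8% of all genes). IL-4Rα-/- replicate 2 and IL-4Rα+/+ replicate 3 were together the highest libraries in 20 of the 39 (51.3%, against 17.4% of all genes) and the lowest in 3 (7.69%, against 16.3%). At the other end, IL-4Rα+/+ replicate 1 was lowest in 15 (38.5%, against 21.3%). The median deviation of the 39 genes from their own means, on the log2 scale, was -0.06, -0.12 and 0.08 in the IL-4Rα+/+ libraries and -0.001, 0.18 and -0.08 in the IL-4Rα-/- libraries. Summed, the 39 genes made up 26505, 25366 and 27657 CPM in IL-4Rα+/+ and 27302, 29440 and 25685 CPM in IL-4Rα-/- libraries, which overlapped.

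**Figure D4:**
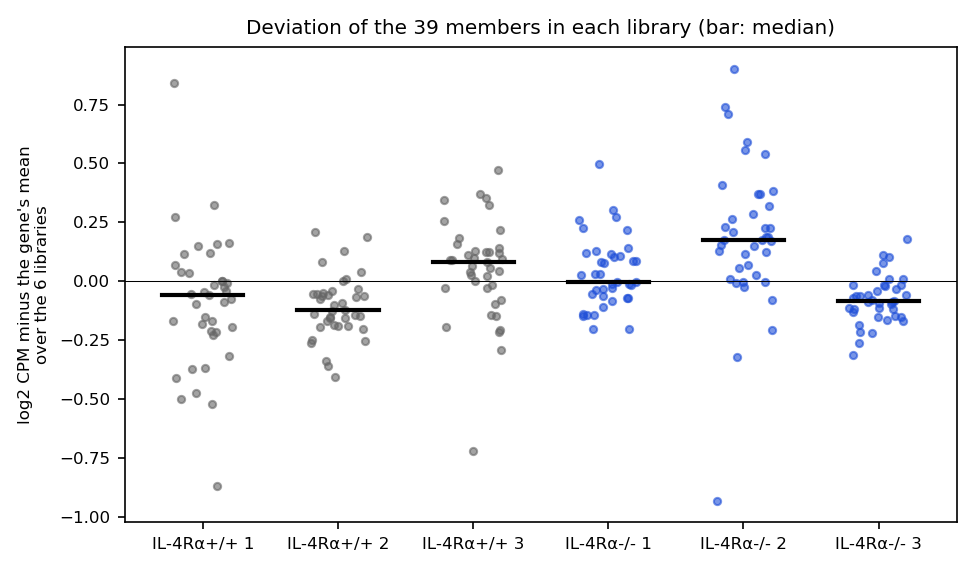
Deviation of each of the 39 genes from its mean over the 6 libraries, as log2 of CPM + 0.5, by library. Points are genes and black bars medians, grey for IL-4Rα+/+ and blue for IL-4Rα-/- mice. The median is highest in IL-4Rα-/- replicate 2 (0.18) and next in IL-4Rα+/+ replicate 3 (0.08).

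The 7 genes that varied most over the 6 libraries all had IL-4Rα-/- replicate 2 and IL-4Rα+/+ replicate 3 at one end. The coefficient of variation was 44.4% for *Cd63*, 42.4% for *Ctsc*, 36.9% for *Gla*, 34.1% for *Ctsl*, 29.2% for *Ppt1*, 26.1% for *Lamp2* and 25.4% for *Atp6v1a*, and at the other end 3.16% for *Cd68*, 3.37% for *Scarb2* and 3.56% for *Psap*. *Cd63* ran the other way from the rest, lowest in the libraries where they were highest. Some monocyte subset markers moved with them. *Ccr2*, high in classical monocytes, had 380, 1045 and 1668 CPM in IL-4Rα+/+ and 826, 2008 and 979 CPM in IL-4Rα-/- libraries. *Spn*, high in non-classical monocytes, had 1186, 849 and 401 against 808, 280 and 722 CPM, and *Nr4a1*, on which non-classical monocytes depend, had 1439, 1209 and 828 against 1024, 539 and 1116 CPM. The libraries with the most *Ccr2* and the least *Spn* and *Nr4a1*, IL-4Rα-/- replicate 2 and IL-4Rα+/+ replicate 3, were thus the libraries with the most *Ctsc*, *Gla*, *Ctsl*, *Ppt1* and *Lamp2*. IL-4Rα-/- replicate 2 also had the highest sum of neutrophil markers (629 CPM, against 57.1 to 253 CPM in the other 5) and of pancreatic acinar markers (278 CPM, against 10.4 to 45.6 CPM). In that neutrophil sum *Mmp8* gave 305 CPM and *S100a8* 91.3 CPM, while *Ly6g* had only 9 counts. *Retnlg* had 1.58 CPM there and was highest in IL-4Rα+/+ replicate 2 (4.02 CPM). Other monocyte markers followed less closely. *Ly6c2* had 242, 380 and 427 against 339, 592 and 503 CPM, and *Cd14* 50.3, 42.6 and 59.7 against 70.4, 117 and 46.4 CPM. In both, IL-4Rα-/- replicate 2 was highest, but another IL-4Rα-/- library lay above IL-4Rα+/+ replicate 3. The part of these markers in the lysosomal values was not tested. *Cd164* did not follow the pattern, since its 3 IL-4Rα-/- libraries lay within 177 to 192 CPM and its 3 IL-4Rα+/+ libraries within 141 to 147 CPM.

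**Figure D5:**
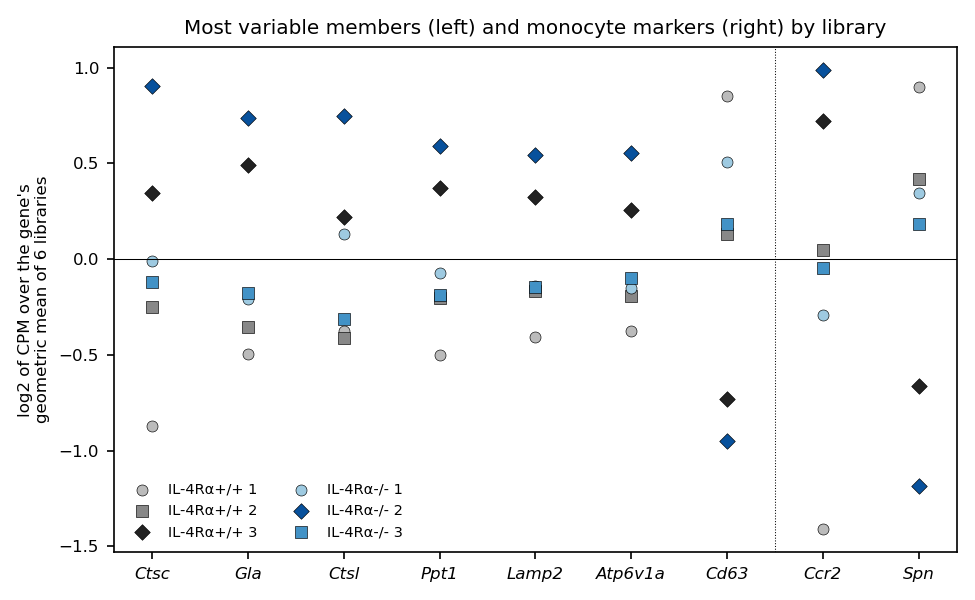
The 7 most variable of the 39 genes (left of the dotted line) and the monocyte markers *Ccr2* and *Spn* (right), as log2 of CPM over the gene's geometric mean of the 6 libraries. Each symbol is a library, in greys for IL-4Rα+/+ and blues for IL-4Rα-/-. The diamonds, IL-4Rα+/+ replicate 3 and IL-4Rα-/- replicate 2, are highest in *Ccr2* and in 6 of the 7 genes and lowest in *Cd63* and *Spn*.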

How the data were processed

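Reads of 75 bp from 6 libraries were aligned to GRCm38 by the authors with STAR 2.6.1a, and the authors deposited raw read counts per gene. Which strand column was kept is not given in the sources used here. Of 55421 gene identifiers 55154 were found in Gencode vM21, a release close to the authors'. STAR's summary rows, 21.1% to 22.8% of all reads, were left out of library sizes and tests.

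Genes passed filterByExpr (minimum count 10), were scaled by TMM and tested with edgeR 4.0.16 (quasi-likelihood, genotype only, R 4.3.3) with Benjamini-Hochberg adjustment. A call was an adjusted p under 0.15, the study's threshold. DESeq2 1.42.0, limma-voom 3.58.1, other filters and scalings, a replicate block, removal of the length trend and leaving out each mouse were alternatives. A fit on simulated data was also checked, with planted changes larger than any among the 39 genes, so it did not test detection of changes as small as theirs. Same-numbered libraries did not deviate together (correlations 0.185, -0.271 and -0.296), so no pairing was used. The 39 genes, the other lists and the rules were chosen with earlier results of these data known. Named were the membrane genes, *Tfeb*, the extremes and genes under an unadjusted p of 0.05, and further genes were named after their values were seen.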

Additional observations from a re-analysis of the deposited data

How the results depend on the processing

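edgeR called 0 of the 39 genes under its alternatives, leaving out each mouse included, while DESeq2 called 1, *Cd164* (0.38, adjusted p 0.0201), and gave *Il4ra* -1.67 (adjusted p 0.0111). Leaving out 1 mouse moved the genes at an unadjusted p under 0.05 between 1 and 5 of the 39 and between 3 and 11 of the 115 other lysosome genes, while 4.44% to 12.1% of all genes were under it in the same fits. *Cd164* was among them each time, at 0.35 to 0.42. Without IL-4Rα+/+ replicate 3 the 5 (12.8%, against 12.1% of all genes) were *Cd164*, *Glb1*, *Hexa*, *Lipa* and *Smpd1*, and without IL-4Rα-/- replicate 3 the 5 (12.8%, against 6.98%) were *Cd164*, *Ctsd*, *Grn*, *Lgmn* and *Smpd1*. Genes not overlapping went from 2 to 18 of the 39, the highest without IL-4Rα+/+ replicate 3 (46.2%, against 36.8% of all genes), and were 8 without IL-4Rα-/- replicate 3 (20.5%, against 26.1%). With fewer libraries a gene separates more readily. The median fold change of the 39 ran from -0.01 (without IL-4Rα-/- replicate 2) to 0.11.

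Signs turned when 1 mouse was left out for *Cd63* (-0.50 to 0.27), *Lamp1* (-0.052 to 0.084), *Lamp2* (-0.092 to 0.41), *Scarb2* (-0.032 to 0.026), *Ctns* (-0.25 to 0.17), *Ctsa* (-0.098 to 0.031), *Gla* (-0.14 to 0.61) and *Atp6v1a* (-0.044 to 0.42). With the trend with transcript length removed, *Lamp1* became -0.043, *Cd68* -0.063, *Scarb2* 0.010 and *Npc1* 0.016, all near 0 before and after, and 4 of the 115 other genes were under an unadjusted p of 0.05. The cause was not tested.

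With the replicate block, *Cd164* stayed at 0.38 (unadjusted p 0.00735, adjusted p 0.812), the median of the 39 was 0.07, 0 were called and 2 were under an unadjusted p of 0.05. The block changed no call.

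With 3 mice per genotype, intervals of the least steady genes, such as *Cd63*, span more than a doubling. The p-values set the genotype difference against the spread between mice within a genotype. Exon bases shared with a gene on the other strand (up to 26.8%, in *Ctsl*) leave that count uncertain, since the strand setting is not stated.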
